A study of Mus musculus with 8 samples.

Results

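The clustered Hox genes were followed in RNA of sorted stromal cells of the small intestine of mice. They were taken as every row whose symbol was Hox, a cluster letter from a to d and a paralogue number, which gave 40 rows for 39 symbols among 53801 rows, Hoxd4 having a pair of identifiers. The 8 libraries came from cells without CD45 and CD31, the surface markers of leukocytes and endothelial cells, that carried YFP and had been separated by surface PDGFRα, a growth factor receptor of fibroblasts, into PDGFRα- and PDGFRα+ fractions of 4 libraries each. The mice are named LTβRfloxPDGFRα/YFP in the labels, so both fractions share the PDGFRα/YFP combination and a floxed lymphotoxin β receptor allele. Nothing in the labels gives an age, a treatment, the state of the floxed allele or the number of mice. The p-values below therefore measure the spread among these 8 libraries only, and that spread may be technical. Mice lacking the floxed allele were not analysed here.

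Hox genes encode homeodomain transcription factors that lie in 4 clusters, Hoxa to Hoxd. Within a cluster, genes of low paralogue number are switched on early and towards the head of the embryo, and genes of high number late and towards the tail, so the set of Hox genes a mesenchymal cell transcribes records its position along the body axis. Adult fibroblasts are known to keep such a set. The small intestine comes from the midgut, and the highest paralogue numbers are known for the hindgut, the limbs and the genital tract. HOX proteins bind DNA together with PBX, MEIS and PKNOX proteins of the TALE class, and Polycomb proteins keep silent stretches of the clusters closed.

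The sequences that bear on the genes described below are the start regions of Hoxd8 and Hoxb4, whose libraries separated by fraction, and of Hoxb8, the member of highest paralogue number detected in cluster b. Each runs from 250 bases before to 50 bases after the annotated start, 5′ to 3′ on the gene's strand, and comes from RefSeq on GRCm38.p6: chr2:74704365-74704664 on the plus strand for Hoxd8, chr11:96318017-96318316 on the plus strand for Hoxb4 and chr11:96281655-96281954 on the plus strand for Hoxb8. Capitals mark matches on either strand to TGATNNAT, a joint binding motif of PBX and HOX proteins, or to TATAAA, the TATA box.
Hoxd8: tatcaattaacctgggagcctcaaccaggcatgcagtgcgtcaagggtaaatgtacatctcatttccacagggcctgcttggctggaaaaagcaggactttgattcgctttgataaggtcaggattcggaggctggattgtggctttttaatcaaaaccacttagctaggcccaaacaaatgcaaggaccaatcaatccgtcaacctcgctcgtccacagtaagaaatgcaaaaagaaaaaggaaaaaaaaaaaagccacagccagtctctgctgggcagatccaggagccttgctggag
Hoxb4: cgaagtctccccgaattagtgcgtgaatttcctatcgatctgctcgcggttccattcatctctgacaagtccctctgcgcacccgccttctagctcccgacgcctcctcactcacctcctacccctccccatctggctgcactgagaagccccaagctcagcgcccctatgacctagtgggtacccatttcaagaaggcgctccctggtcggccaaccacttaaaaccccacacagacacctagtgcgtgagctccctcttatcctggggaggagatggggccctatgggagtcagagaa
Hoxb8: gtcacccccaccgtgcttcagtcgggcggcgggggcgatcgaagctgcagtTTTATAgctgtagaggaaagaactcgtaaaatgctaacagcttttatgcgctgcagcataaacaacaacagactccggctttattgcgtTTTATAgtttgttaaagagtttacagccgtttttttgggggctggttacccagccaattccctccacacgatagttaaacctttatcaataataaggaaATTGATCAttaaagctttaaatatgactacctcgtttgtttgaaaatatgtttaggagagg
The Hoxb8 window held 1 PBX-HOX match, 11 bases before the start, and 2 TATAAA matches, all on the minus strand, so that they are printed here as ATTGATCA and TTTATA. The Hoxd8 and Hoxb4 windows held neither string, which says only that these letters are not in these windows. Among all 32851 RefSeq promoters of this length, 8.85% held TGATNNAT and 13.6% held TATAAA. Among the 24 promoters of 22 Hox genes there, 4 held TGATNNAT and 4 held TATAAA. A match is a description of the sequence.

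Between the coding genes the clusters carry microRNAs of the miR-196 family, which are known to pair with Hox messages, Hoxb8 foremost. The mature 5p arms in RefSeq on GRCm38.p6, with the seed in capitals (bases 2 to 8), share that seed.
miR-196a-5p: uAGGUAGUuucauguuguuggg
miR-196b-5p: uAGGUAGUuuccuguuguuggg
The row of Mir196a-1, which lies between Hoxb9 and Hoxb13 and yields miR-196a-5p, held 13 to 39 counts in every library. Its 4 PDGFRα- libraries had 13, 33, 20 and 16 counts and its 4 PDGFRα+ libraries 26, 24, 39 and 13, so the fractions overlapped. This row spans 102 bases, and its counts do not measure the mature arm of 22 bases. Rows of Mir196a-2 and Mir196b held 0 counts in all libraries, and both lie inside the body of a Hox gene on the same strand (Hoxc5 and Hoxa9).

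Sequencing depth ran from 12926651 to 35115771 counts per library, and Hox genes took 0.0137% to 0.0191% of them. Values below are CPM, counts per 1000000 counts of scaled library size. The fibroblast genes Pdgfra, Col1a1, Col1a2, Dcn, Lum and Pdgfrb summed to 64514 to 93702 CPM in the PDGFRα- and 45530 to 63567 CPM in the PDGFRα+ libraries. Pdgfra itself, the gene of the sorted receptor, was at 652 ± 124 CPM in PDGFRα- and 597 ± 69.2 CPM in PDGFRα+ libraries (SD, n = 4 each), and its libraries overlapped (log2 fold change -0.13 ± 0.17 SE, edgeR adjusted p = 0.971). Genes of other cells were low by comparison: summed over 6 markers each, leukocyte genes reached at most 122 CPM, endothelial genes 421, epithelial genes 24.5 and genes of enteric glia and neurons 13.3, in each case in a PDGFRα- library. Smooth muscle genes summed to 346 to 1733 CPM in PDGFRα- and 424 to 1388 in PDGFRα+ libraries, pericyte genes to 841 to 1602 and 695 to 1250, and the 4 genes of interstitial cells of Cajal to 7.98 to 34.7 and 14.9 to 37.4.

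A Hox gene was called detected at 1 CPM or more in at least 4 of the 8 libraries. By this rule 13 of the 39 genes were detected: 3 of 11 genes in cluster a, Hoxa2 and Hoxa7 among them, Hoxb2 to Hoxb8 (7 genes) of 10 in cluster b, Hoxc4 and Hoxc5 of 9 in cluster c, and Hoxd8 of 9 in cluster d. All 13 had paralogue numbers of 1 to 8, where the clusters hold 23 genes, and 0 of the 16 genes of numbers 9 to 13 was detected. The last detected gene going towards the high numbers was Hoxa7, Hoxb8, Hoxc5 and Hoxd8 in the 4 clusters. Of the other genes, 12 had a few counts and 14 symbols held 0 counts in every library.

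**Figure D1:**
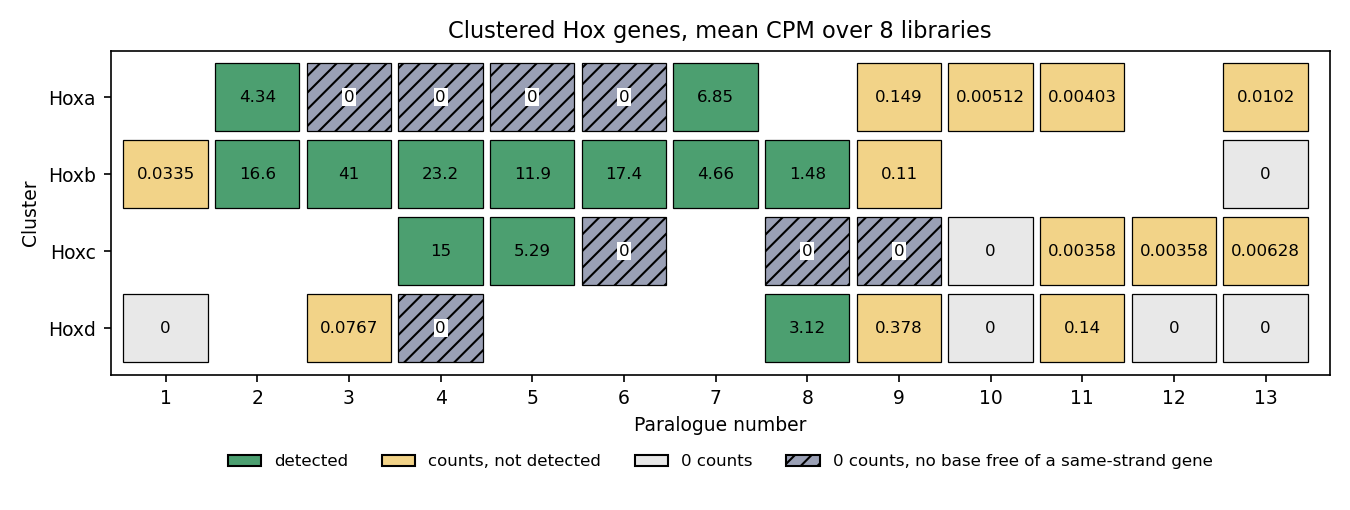
Clustered Hox genes by cluster (vertical axis) and paralogue number (horizontal axis), each with its mean CPM over the 8 libraries; empty positions hold no mouse gene or a gene not reported here. The green genes passed the detection rule, all at paralogue number 8 or lower; the 8 hatched genes have no base free of another annotated gene on their strand, and their 0 is not read as absence.

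Detection by paralogue number is given from group 2 on. Group 2 had 2 of 2 genes detected (Hoxa2 and Hoxb2), group 3 had 1 of 3 (Hoxb3), and group 4 had 2 of 4 (Hoxb4 and Hoxc4). Group 5 had 2 of 3 (Hoxb5 and Hoxc5), group 6 had 1 of 3 (Hoxb6), group 7 had 2 of 2 (Hoxa7 and Hoxb7), and group 8 had 2 of 3 (Hoxb8 and Hoxd8). In every one of these groups at least 1 gene was detected. From group 9 on none was.

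The 0 counts do not all carry the same weight. In the GENCODE M21 annotation (GRCm38), 8 Hox genes have no base of their body, introns included, that is free of another annotated gene on the same strand: Hoxa3, Hoxa4, Hoxa5 and Hoxa6 under one another and under the long transcript Gm28308, Hoxc6, Hoxc8 and Hoxc9 inside the body of Hoxc5, and Hoxd4 under Hoxd3 and Gm28230. All 8 held 0 counts in all 8 libraries. The same was true across the table, where 465 of 465 protein-coding genes with no free base of body held 0 counts in every library, against 17.3% of the 17745 whose whole body was free. Among them were 200 genes whose exons touch no exon of another gene, and these too held 0 in all 200 cases. For the 8 Hox genes the table therefore holds no information, and they are called neither expressed nor silent here. This removes the middle of cluster a and most of the middle of cluster c from view. Going towards the high numbers, Hoxc6, Hoxc8 and Hoxc9 follow Hoxc5, so whether Hoxc5 is the last transcribed gene of cluster c cannot be read.

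**Figure D2:**
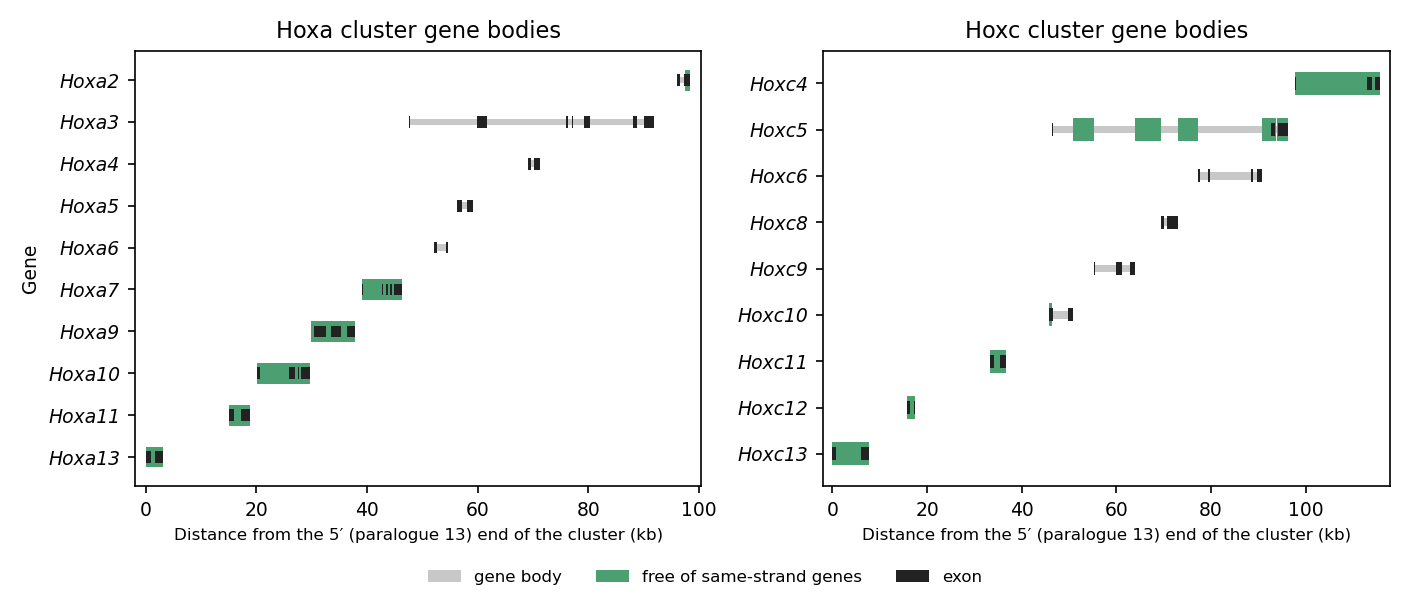
Annotated bodies of genes of clusters a (left) and c (right), drawn to scale as distance in kb from the 5′ end of the cluster, where paralogue 13 lies; grey bars are gene bodies, green blocks the stretches free of other genes on the same strand, and black blocks exons. Hoxa3 to Hoxa6 and Hoxc6, Hoxc8 and Hoxc9 have no green block, while Hoxa7 and Hoxc4 are free throughout.

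Of the 31 genes with at least some free body, 13 were detected. These were 13 of the 16 such genes of numbers 1 to 8 and 0 of the 15 of numbers 9 to 13. The 24 genes free over their whole body included all 10 of cluster b. Hoxa2 (39% of the body free) and Hoxc5 (39.1%) were detected although only part of their bodies is free. The free part of Hoxc5 includes the stretches between Hoxc10, Hoxc9, Hoxc8 and Hoxc6. Whether all counts of the Hoxc5 row came from Hoxc5 itself was not tested. A count of 0 in every library with free body was found for 6 genes: Hoxb13, Hoxc10, Hoxd1, Hoxd10, Hoxd12 and Hoxd13. Of these Hoxc10 had only 12.7% and Hoxd10 28.6% of its body free. A count of 0 allows up to 3 counts, which is 0.085 to 0.23 CPM depending on the library and covers counting error only. Hoxd1 was thus the 1 gene of groups 1 to 8 that stood at 0 with its body free. Hoxb1, a head-end gene, held 7 counts in all (5 in PDGFRα- library 1 and 2 in PDGFRα+ library 3).

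Cluster b held most of the Hox signal. Summed over its genes as CPM per kb of exon, it made up 62.0% to 80.6% of the Hox total of a library, and 59.9% to 80.8% when each gene was divided by the kb of its free body instead. Cluster a gave 7.66% to 15.4% per kb of exon and 14.7% to 28.7% per kb of free body. Cluster c gave 9.75% to 19.3% per kb of exon but only 2.67% to 5.27% per kb of free body, since Hoxc4 and Hoxc5 have long introns. The sums leave out the genes without free body, so they may understate clusters a, c and d by an amount that cannot be read from this table.

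By paralogue number, per kb of exon, group 4 led with 19.3% to 36.0% of the Hox total, followed by group 3 with 11.0% to 20.6%, group 6 with 8.22% to 21.4% and group 2 with 6.42% to 18.6%. The ranges of these groups overlap. Group 8 gave 1.28% to 5.60%. On this scale its highest share lay below the lowest share of groups 2, 3, 4 and 6. Per kb of free body the order changed at the top: group 2 took 17.8% to 39.4% and group 4 17.9% to 31.9%, while group 3 took 3.71% to 9.22%. The genes without free body add nothing to these sums either. Groups 4 and 6 have 2 such genes each, groups 3, 5 and 8 have 1 each, and groups 2 and 7 have 0. The order of the groups therefore holds only for the genes that could be counted.

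Among single genes of cluster b, Hoxb3 was highest per kb of exon with a mean of 9.64 CPM per kb, then Hoxb4 with 9.04 and Hoxb6 with 8.85. The libraries of these 3 overlapped on that scale. Per kb of free body Hoxb4 led at 6.88, followed by Hoxb2 at 4.75, Hoxa2 at 4.61 and Hoxb5 at 4.29, with Hoxb6 at 1.91 and Hoxb3 at 1.67. Among the 13 detected genes, Hoxb8 and Hoxc5 were the lowest pair per kb of free body, at 0.433 and 0.270. Hoxb4 was the 1 gene among the leading pair on both scales.

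Hoxb3 (chromosome 11, 96323326 to 96347930) had 42.3, 43.5, 45.4 and 34.7 CPM in PDGFRα- libraries 1 to 4 and 44.2, 50.6, 42.5 and 24.6 CPM in PDGFRα+ libraries 1 to 4. PDGFRα+ library 4 was the lowest of the 8 and the fractions overlapped. Hoxb6 (96292476 to 96301569) had 19.6, 16.1, 20.1 and 8.14 CPM in PDGFRα- and 21.6, 17.9, 13.5 and 22.1 CPM in PDGFRα+ libraries. Here PDGFRα- library 4 was lowest. Hoxb8 (96281905 to 96285315) was the faintest of the 13, with 2.32, 0.855, 0.858 and 2.11 CPM in PDGFRα- and 0.888, 2.91, 1.58 and 0.297 CPM in PDGFRα+ libraries, a span of 9.79 times from lowest to highest. Among the other genes of cluster b, Hoxb2 lay between 6.24 and 25.2 CPM, Hoxb5 between 8.14 and 17, and Hoxb7 between 1.06 and 7.33.

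In cluster a (chromosome 6), Hoxa2 had 6.80, 3.02, 2.18 and 6.63 CPM in PDGFRα- and 4.01, 4.75, 4.52 and 2.82 CPM in PDGFRα+ libraries. This gene, which patterns the hindbrain and its neural crest in the embryo, overlapped between the fractions. Hoxa7 (52214491 to 52221854), a trunk gene, had 5.54, 4.93, 4.29 and 4.37 CPM in PDGFRα- and 3.73, 7.37, 12.3 and 12.3 CPM in PDGFRα+ libraries. Of the PDGFRα+ libraries 3 were above all PDGFRα- libraries and 1 was below them.

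In cluster c (chromosome 15), Hoxc4 (103018934 to 103036852) had 13.8, 14.4, 12.7 and 15.1 CPM in PDGFRα- and 11.1, 18.7, 24.9 and 9.06 CPM in PDGFRα+ libraries. The PDGFRα- libraries were close together and lay inside the range of the others. Hoxc5 had 3.50, 5.13, 3.74 and 3.67 CPM in PDGFRα- and 2.87, 8.44, 5.13 and 9.81 CPM in PDGFRα+ libraries, also overlapping. Hoxc11, Hoxc12 and Hoxc13 held 1 count each over all libraries.

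**Figure D3:**
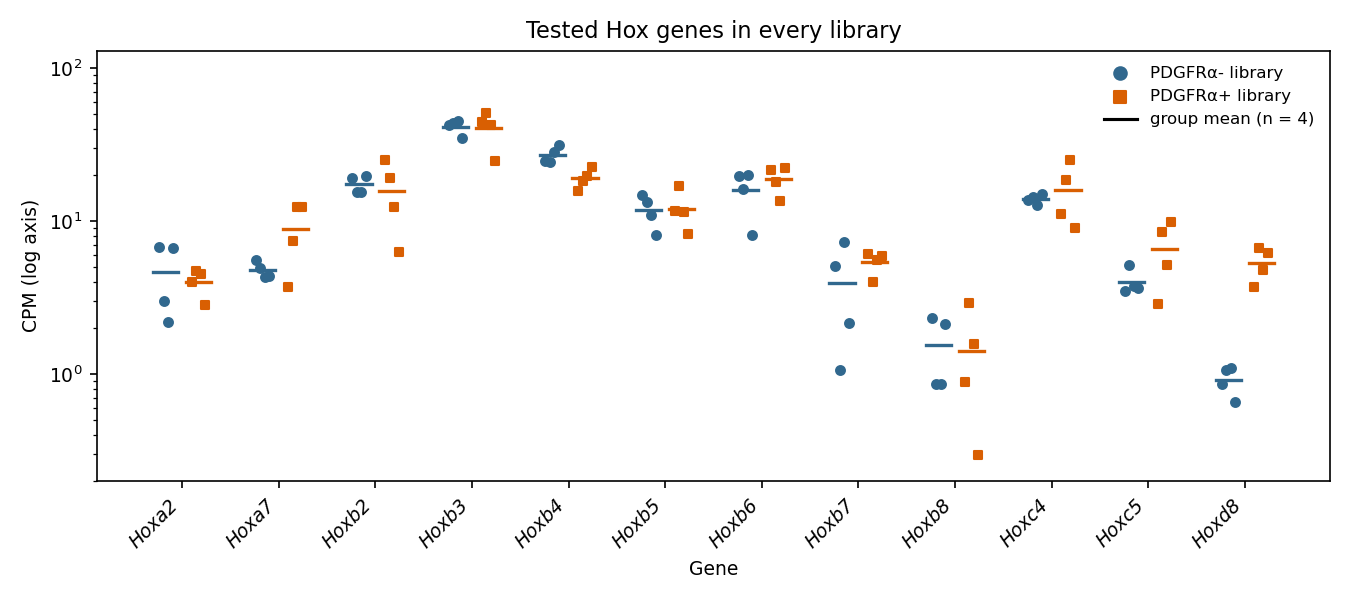
CPM on a log axis of tested Hox genes (horizontal axis) in every library; blue circles are PDGFRα- and orange squares PDGFRα+ libraries, and bars are group means (n = 4). Hoxd8 has all 4 PDGFRα+ libraries above all PDGFRα- libraries and Hoxb4 all 4 below, and the other genes drawn overlap.

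The genes of groups 9 to 13 gave 5, 1, 2 and 23 counts per library in PDGFRα- and 2, 1, 4 and 63 in PDGFRα+, in number order. The libraries numbered 4 of both fractions were thus above the rest. Within each fraction, the Hoxd9 count was also highest in library 4. In PDGFRα+ library 4 the counts were Hoxd9 with 32, Hoxa9 with 16, Hoxd11 with 14 and Hoxb9 with 1, together 3.38% of its Hox counts. In PDGFRα- library 4 they were Hoxb9 with 16, Hoxd9 with 6 and Hoxc13 with 1, or 0.810%. In the other 6 libraries the share ran from 0.0227% to 0.126%. Hoxa9 and Hoxd11 together had 1 count outside PDGFRα+ library 4. These genes mark the posterior trunk and beyond; what sets library 4 of each fraction apart was not tested.

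Next, the sorted fractions were compared, asking whether cells with and without surface PDGFRα differ in their Hox set. The sum over all Hox genes was 53.8 ± 4.37 CPM per kb of exon in PDGFRα- and 57.2 ± 4.75 in PDGFRα+ libraries (SD, n = 4 each), with overlapping libraries. Over the 13 tested genes the median log2 fold change, PDGFRα+ against PDGFRα-, was 0.19, and 8 of 13 were above 0, beside a median of -0.01 and 49.1% above 0 over all 15643 genes tested. At an adjusted p of 0.05 in the quasi-likelihood test of edgeR, 0 of the 13 Hox genes were called, where 0.243% of all tested genes were (30 higher and 8 lower in PDGFRα+). At an unadjusted p of 0.05 the count was 2 of 13 Hox genes and 1087 of 15643 genes. DESeq2 called 1 of 13 (Hoxd8) against a background of 1.57%. The authors' deposited table called the same single gene against a background of 4.82%, and its counts of 386 higher and 423 lower genes equalled those of DESeq2 with the replicate number as a term.

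Hoxd8 was the member that stood apart. This gene of the trunk group lies at chromosome 2, 74704615 to 74707933. It had 21, 21, 14 and 13 counts in PDGFRα- and 129, 163, 148 and 83 counts in PDGFRα+ libraries, or 0.855, 1.06, 1.09 and 0.653 CPM against 3.70, 6.68, 4.78 and 6.17 CPM. Every PDGFRα+ library was above every PDGFRα- library, and the lowest of the former was over 3 times the highest of the latter. The means were 0.914 ± 0.203 and 5.33 ± 1.35 CPM (SD, n = 4 each), a 5.81-fold difference and a log2 fold change of 2.54 ± 0.65 SE (95% interval 1.14 to 3.94). The edgeR p was 0.00162 and the adjusted p 0.194, while DESeq2 gave an adjusted p of 4.3e-05 and the authors' deposited table a log2 fold change of 2.52 with an adjusted p of 0.00374. The size of the difference was close in these fits, and the call was not the same. Hoxd8 ranked 57 of 15643 genes by fold change and 131 by p.

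Of all tested genes 2.69% had libraries that did not overlap and were higher in PDGFRα+, and 2.36% were lower; among the 13 Hox genes these were 1 (Hoxd8) and 1 (Hoxb4). The body of Hoxd8 lies wholly under Hoxd3os1, an antisense gene. The strand setting of the counting is not given in the sources used here, and mixing of reads of the pair was not tested. Hoxd3os1 itself held 2, 0, 0 and 29 counts in PDGFRα- and 0, 42, 19 and 4 in PDGFRα+ libraries. Across the table, 548 of 734 protein-coding genes whose body was free on their own strand but covered on the other one held counts. Of the 465 with no base free on their own strand, 0 did. The 6 endothelial genes summed to 17.5 to 421 CPM in PDGFRα- and 6.47 to 98.4 in PDGFRα+ libraries, with none of 6 called. The 6 mesothelial genes summed to 1.46 to 3.77 and 0.328 to 13.9 CPM, with Bnc1 at 0 counts. Of the pericyte genes, Cspg4 was at 32.9 ± 11.9 CPM in PDGFRα- and 73 ± 20.7 in PDGFRα+ libraries (SD, n = 4 each; adjusted p = 0.113 in edgeR and 0.0161 in DESeq2), without overlap. Abcc9 was at 83.9 ± 12.3 and 34.8 ± 17.8 CPM (0.183 and 0.0173), also without overlap. Of the fibroblast genes, Col1a1 was at 44722 ± 6151 and 30984 ± 5586 CPM (0.378 and 0.102) and Col1a2 at 26345 ± 4148 and 17889 ± 2300 CPM (0.297 and 0.0471), both without overlap. The part of any of these cells in the Hoxd8 difference was not tested. In bulk RNA, more cells with Hoxd8 and more Hoxd8 RNA per cell cannot be told apart.

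The other genes of cluster d showed no such pattern, but not all of them could have. Hoxd4 has no free base of body, and Hoxd1, Hoxd10 (28.6% of its body free), Hoxd12 and Hoxd13 held 0 counts. The sum of the cluster per kb of exon was 0.369, 0.408, 0.453 and 0.379 in PDGFRα- and 1.35, 2.43, 1.93 and 3.61 in PDGFRα+ libraries, mostly Hoxd8. Its share of the Hox total was 0.630% to 0.821% and 2.48% to 6.85%. Hoxd9, its next gene towards the high numbers, had 3, 1, 1 and 6 counts in PDGFRα- and 0, 0, 3 and 32 in PDGFRα+ libraries. Hoxd11 had 1 count in PDGFRα- library 3 and 14 in PDGFRα+ library 4. Hoxd3, with 1.44% of its body free, had 19 counts, all in PDGFRα+ library 3.

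Hoxb4 had the lowest log2 fold change. This gene lies at chromosome 11, 96318267 to 96321638, and is known from blood stem cells as well as from patterning. It had 24.6, 24.3, 28.4 and 31.6 CPM in PDGFRα- and 15.8, 18.4, 19.7 and 22.7 CPM in PDGFRα+ libraries. All PDGFRα+ libraries were below all PDGFRα- libraries, by a narrow gap. The means were 27.2 ± 3.42 and 19.2 ± 2.87 CPM (SD, n = 4 each), with a log2 fold change of -0.51 ± 0.22 SE, an edgeR p of 0.0404 and an adjusted p of 0.676. DESeq2 gave an adjusted p of 0.290 and the authors' deposited table one of 0.241. No fit called it.

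**Figure D4:**
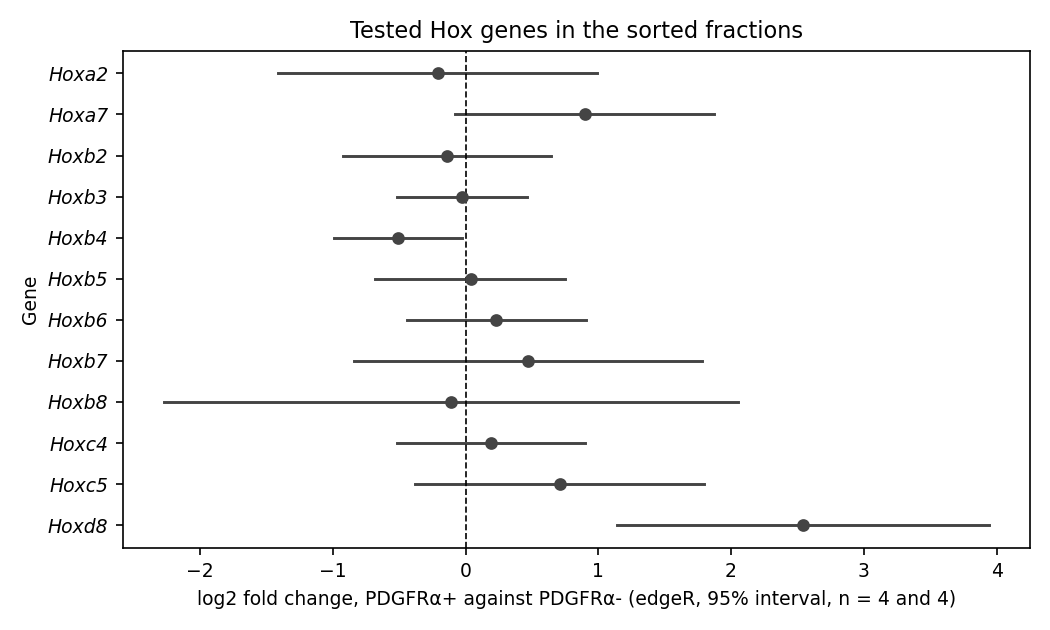
Log2 fold change, PDGFRα+ against PDGFRα-, of tested Hox genes (points) with 95% intervals (lines) from edgeR, 4 libraries per fraction; the dashed line is no change. The interval of Hoxd8 runs from 1.14 to 3.94 and that of Hoxb4 from -0.99 to -0.03 before any adjustment; the other intervals drawn include 0.

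Hoxa7 was the next highest by fold change, at 4.78 ± 0.578 against 8.92 ± 4.17 CPM and a log2 fold change of 0.90 ± 0.45 SE (adjusted p = 0.777 in edgeR). Hoxc5 followed with 0.71 ± 0.51 SE. The remaining 9 genes had log2 fold changes from -0.21 (Hoxa2) to 0.47 (Hoxb7). How narrowly a difference was bounded depended on the gene. The 95% interval of Hoxb3 ran from -0.52 to 0.46 on the log2 scale, and that of Hoxb8, the faintest gene, from -2.27 to 2.05, which includes differences of several fold in either direction. A p that misses the threshold does not show equal levels in these genes.

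Variation that followed the replicate number, and not the sort, was asked for in an F test of the number. It called 0 of 13 Hox genes, also 0 at an unadjusted p of 0.05, beside 4.28% of all tested genes (669 genes, and 2526 at an unadjusted p of 0.05). The lowest Hox p was that of Hoxb3 (0.0905, adjusted 0.409). No gene of groups 9 to 13 was among the 13, so the test does not cover their counts in the libraries numbered 4. Noncoding genes inside the clusters did differ by number: Hoxaas2 (adjusted p = 0.00804, edgeR) and Hoxb5os (0.0264). Hoxaas2 is antisense to the end of Hoxa3 that lies towards Hoxa2, and Hoxb5os is antisense to Hoxb5 and Hoxb6. Hoxaas2 had 215, 350, 68 and 35 counts in PDGFRα- and 342, 522, 183 and 7 in PDGFRα+ libraries, lowest in number 4 of both fractions. Hoxb5os had 234, 118, 118 and 8 against 266, 304, 96 and 5 counts, again lowest in number 4.

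In all, 46 other annotated genes lie within the 4 clusters, 29 of them at 0 in all libraries. Several of these, such as Mir196b, Mir10b, Mir615 and 5730596B20Rik, have no free base of body, so their 0 is not read as absence. The 9 that could be tested were called 0 times between the fractions in edgeR and in DESeq2. Hotairm1, a noncoding gene of cluster a, was the highest of them per kb of exon at 17.4 ± 5.96 against 16.8 ± 5.60 CPM. Mir196a-1 and Hoxb5os were next on that scale. Gm28308, the transcript that covers Hoxa3 to Hoxa6, was at 4.47 ± 3.54 and 5.49 ± 3.88 CPM.

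Several cofactors of HOX proteins were above the Hox genes themselves. Of 9 genes 8 were tested, with a median log2 fold change of -0.22 and 3 above 0, and 0 were called in edgeR or DESeq2. Meis1, a partner of HOX and PBX proteins, was at 268 ± 31.1 and 225 ± 7.08 CPM. Meis2 was at 308 ± 56.4 and 222 ± 81.1 CPM. Per kb of exon Meis1 had a mean of 23.4 CPM, against 9.64 for the highest Hox gene.

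Among 17 chromatin regulators of the clusters, Polycomb and Trithorax genes and histone demethylases, all were tested and 0 were called between the fractions in edgeR or DESeq2. The 3 highest per kb of exon were Kdm6b, a demethylase of the Polycomb mark (428 ± 98.7 and 341 ± 135 CPM), Ash1l (213 ± 24.9 and 198 ± 22.4) and Kmt2a (209 ± 28 and 206 ± 14.4). Kdm6b differed by replicate number (adjusted p = 0.0149, edgeR). The median log2 fold change of the list was -0.21 and 2 of 17 were above 0.

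Other regional transcription factors were looked at beside the Hox genes. Of 25 such genes 13 were tested and 0 called in edgeR, with a median log2 fold change of 0.41 and 10 of 13 above 0. DESeq2 called 1 of the 13, higher in PDGFRα+. This was Nkx2-3, a homeobox gene of midgut and hindgut mesenchyme, at 86.8 ± 8.88 and 144 ± 30.8 CPM and higher in 4 of 4 numbers, with an adjusted p of 0.158 in edgeR and 0.0215 in DESeq2. Foxf2, a Hedgehog target of gut mesenchyme, was at 17.4 ± 8.70 and 37.5 ± 15.7 CPM, also higher in 4 of 4 numbers, with adjusted p-values of 0.373 and 0.141 in the same order. Tcf21, a mesenchymal factor and the highest of the list per kb of exon, was at 161 ± 18.5 and 223 ± 16 CPM and was not called (edgeR adjusted p = 0.339). Osr1, also among the 3 highest, was at 68.5 ± 29.0 and 53.4 ± 23.8 CPM and differed by replicate number (adjusted p = 0.0432).

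The genes next to the clusters gave a picture of the flanking chromosome. Of 13 listed, 12 were found and 8 tested, and 0 were called between the fractions in edgeR or DESeq2. Calcoco1, beyond cluster c, was the highest per kb of exon at 65.8 ± 26.2 and 56.3 ± 13.5 CPM and differed by replicate number (adjusted p = 0.0431, edgeR). Cbx5 was at 59.5 ± 16.8 and 70.8 ± 14.9 CPM and Skap2, beyond the head end of cluster a, at 80.2 ± 18 and 76.5 ± 8.98 CPM. Lnpk and Mtx2, which flank cluster d where Hoxd8 lies, had log2 fold changes of 0.52 ± 0.27 SE and 0.62 ± 0.37 SE and were not called (adjusted p = 0.780 and 0.860, edgeR).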

How the data were processed

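RNA of 8 libraries was analysed, 4 per fraction. Per the labels' protocols, libraries were made with the SMARTer stranded Pico kit for total RNA and sequenced on a NextSeq. Per the submitters' processing notes, cutadapt 3.4, STAR 2.7.3a, featureCounts 2.0.1 and DESeq2 were used with GRCm38 (mm10). The strand setting, gene features and annotation of the counting are not given in sources used here. Deposited by the authors were whole-number read counts per gene, not normalized, and from their own comparison log2 fold changes and adjusted p-values. Another 8 columns of scaled counts were not used.

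Counts were tested in edgeR 4.0.16 by its quasi-likelihood test (R 4.3.3; TMM scaling, robust fit, 15643 genes after filterByExpr), with fraction as the only term and Benjamini-Hochberg adjustment over all genes tested (threshold 0.05, 2-sided). DESeq2 1.42.0, a block for replicate number, other filters and scalings, and leaving out each library were alternatives. CPM are TMM-scaled, given as mean ± SD. Gene bodies and exons came from GENCODE M21, which holds 53706 of the 53801 identifiers; 1 of the 40 Hox rows is not in it. Depth of 12926651 to 35115771 counts sets the precision; the reads carry no molecular identifiers in these files, so limits from counts cover counting error only. The fits were tested on simulated data.

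The Hox genes, gene lists, markers and tests were chosen with earlier results of these data known. Values in every library are given for the leading genes per kb of each cluster, members called in any fit, those of highest and lowest fold change and the last detected gene of each cluster; of other lists, the called genes and the 3 highest. Results of some members and list genes are not reported here. Lnpk, Mtx2, Gm28308, Hoxa9, Hoxb9 and Hoxd3 were named after their values were seen.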

Additional observations from a re-analysis of the deposited data

Results flagged for a closer look

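In 36 groups of 4 libraries over 18 Hox genes with at least 10 counts, 8 values lay far from the other 3 of their fraction; chance sets apart about 1 in 20 groups. That rate does not hold where the other 3 libraries are all at 0, as for 6 of the 8, since any count is then set apart. For 7 of the 8, the gene was close to or at 0 in the other libraries of the fraction. In PDGFRα+ library 4 these were Hoxd9 at 2.38 CPM (32 counts), Hoxa9 at 1.19 CPM (16 counts), Hoxd11 at 1.04 CPM (14 counts) and Hoxb9 at 0.0743 CPM, which is 1 count. In PDGFRα- library 4 it was Hoxb9 at 0.804 CPM (16 counts). In PDGFRα+ library 3 it was Hoxd3 at 0.613 CPM (19 counts), and in PDGFRα- library 3 Hoxd11 at 0.078 CPM, again 1 count. The remaining value was Hoxc5 in PDGFRα- library 2, at 5.13 CPM (102 counts) against 3.50 to 3.74 CPM in the other 3. What sets these libraries apart was not tested.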

How the results depend on the processing

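The labels give both fractions the replicate numbers 1 to 4. As a check of pairing, each library's deviation from its group mean was correlated with that of its number in the other fraction, giving 0.231, 0.182, 0.023 and 0.248 over 15643 genes. The best match of 7 of 8 libraries was their own number, and with number 3 this low, pairing was not established. With the replicate block edgeR called 209 genes higher and 146 lower in PDGFRα+ instead of 30 and 8, and 0 Hox genes in both fits. With the block Nkx2-3 (adjusted p = 0.00735), Foxf2 (0.017) and Cspg4 (0.0402) were called higher and Abcc9 (0.00527), Col1a1 (0.0155) and Col1a2 (0.0137) lower, Hoxd8 had an adjusted p of 0.122, and no cofactor, chromatin regulator, cluster neighbour or other gene inside the clusters was called. DESeq2 called 156 and 116 genes, DESeq2 with the block 386 and 423, and each called 1 Hox gene, Hoxd8, with log2 fold changes of 2.54 and 2.52. With no filter on low counts edgeR called 167 and 110 genes. Leaving out 1 library gave 7 to 39 higher calls (7 and 11 without PDGFRα- 3 and 2; 10, 12 and 19 without PDGFRα+ 3, 2 and 1) and 0 to 11 lower calls (0, 1 and 4 without PDGFRα- 3, 2 and 1; 0, 3 and 4 without PDGFRα+ 3, 2 and 1). With the block, leaving out numbers 1 to 4 gave 124, 178, 77 and 185 higher and 72, 103, 22 and 115 lower calls. Differences by number went from 669 to 316 without number 1 and 247 without number 4, and to 983 without number 2. Detected Hox genes numbered 9 to 13 under all alternatives, the lowest at 5 CPM and, in a scale chosen after seeing the data, at 1 CPM per kb of free body. Scaling by RLE instead of TMM moved the median scaling of the PDGFRα+ libraries against that of the PDGFRα- libraries by -0.02 on the log2 scale.

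Over 17 alternatives Hoxa7, Hoxb4, Hoxb7, Hoxc5 and Hoxd8 kept their sign, and Hoxd8 stayed between 2.30 and 2.68 with edgeR adjusted p from 0.122 to 0.501 in 15 edgeR alternatives. Other genes changed sign when libraries were left out: Hoxa2 (0.01, 0.03, 0.18 and 0.31; lowest -0.44 without 1 library and -0.45 with the block), Hoxb2 (0.12 and 0.14; lowest -0.47 and -0.54), Hoxb3 (0.01, 0.06 and 0.15; lowest -0.16 and -0.17), Hoxb5 (-0.08, -0.10 and -0.17; highest 0.19), Hoxb6 (-0.09), Hoxb8 (0.05, 0.08, 0.14, 0.15, 0.22 and 0.45; lowest without 1 library -0.72) and Hoxc4 (-0.02, -0.10 and -0.22; highest 0.39); the cause was not tested.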
